A study of Mus musculus with 6 samples.

Results

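The genes described here are 10 members of the epidermal growth factor (EGF) family, 7 ligands (Areg, Ereg, Btc, Hbegf, Tgfa, Egf and Nrg1) and 3 receptors (Egfr, Erbb2 and Erbb3), out of 23087 genes with 1 locus in the deposited table. They were taken as a family by gene symbol, and Areg was selected on its FPKM, chosen by being higher in the multiparous FoxO1-deficient library than in the multiparous control library. That difference is therefore given as a description with no test. RNA was sequenced from pancreatic beta cells, which make insulin, after flow sorting from islets of female mice. The mice ate chow and their strain background was mixed 129J-C57BL/6. The controls were wild type (WT), and the others were RIP-Cre/FoxO1 floxed (IKO), in which a Cre recombinase under the rat insulin promoter cuts out the gene for the transcription factor FoxO1. Each genotype was taken at 3 months nulliparous, at 12 months nulliparous, and at 12 months after 3 pregnancies (multiparous), which makes 6 groups of 1 library. The multiparous WT library is labelled NGT and the multiparous IKO library DM, so what those labels mark cannot be told apart from genotype between them or from parity within a genotype. The labels do not say whether WT mice carried the Cre or the floxed allele, nor how many mice gave each library. With a single library in each group, differences within a pair of libraries have no test. The p-values below are set against the spread between libraries that the fitted terms leave over. For each gene, limma draws that spread toward a trend over all genes, so a p-value also rests on the spread of other genes.

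EGF family ligands are made as membrane-anchored precursors and are released by metalloproteases, in mouse cells mainly ADAM17 for amphiregulin, TGF-alpha, HB-EGF and epiregulin and ADAM10 for EGF and betacellulin. Amphiregulin (Areg), EGF and TGF-alpha bind EGFR, betacellulin (Btc), epiregulin (Ereg) and HB-EGF (Hbegf) bind EGFR and ERBB4, and neuregulins bind ERBB3 and ERBB4, while ERBB2 has no known ligand and works as the partner of the others. The receptors are tyrosine kinases that signal through RAS to the kinase ERK and through PI3 kinase to AKT. In mice, signalling through EGFR is known to take part in the growth of beta cell mass, including that of pregnancy.

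Values are FPKM, fragment counts corrected for the length of the transcript and the size of the library, which the authors deposited with 1 column per library, and levels of different genes are compared on that per-length scale. FPKM summed to between 268006 and 316023 per library over these genes. The 12-month nulliparous WT library stood apart. Its log2 values had r = 0.955 to 0.961 with the other libraries across genes, which are not independent replicates, and r lay at 0.982 to 0.993 among the other 5. At low values, 1 FPKM stood for 0.756 times as many fragments there as in the 3-month IKO library, and for 0.815 to 0.981 times as many in the other 4, so its low values were the least precise. Foxo1 was at 5.67 to 8.93 FPKM in the WT libraries and at 0.410 to 0.656 in the IKO libraries. Of 10 beta cell markers, 7 had a mean of at least 1 FPKM, but Ins1, Ins2 and Iapp were listed at 0 in all 6 libraries, so a value at or near 0 in this table need not mean that the RNA was absent.

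The promoter of Areg is shown first because it holds the 1 match among the members' promoters to the cAMP response element TGACGTCA, a palindrome that reads the same on both strands and is bound by CREB-type factors. In human cells AREG is known to be induced by cAMP through such an element. The stretch of Egf is shown because it holds the 1 match to TGTTTAC, a core bound by FoxO and other forkhead factors, read here as GTAAACA on the opposite strand. Sequences are those of RefSeq on GRCm38.p6 and are written from 5′ to 3′ on the strand of the gene, with the matched letters in capitals.
Areg, chr5:91139349-91139598, + strand: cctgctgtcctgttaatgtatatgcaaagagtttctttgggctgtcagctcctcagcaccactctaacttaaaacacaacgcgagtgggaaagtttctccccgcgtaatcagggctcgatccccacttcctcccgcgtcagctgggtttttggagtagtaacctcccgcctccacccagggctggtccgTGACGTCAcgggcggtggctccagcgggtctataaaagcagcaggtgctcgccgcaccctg
Egf, chr3:129725241-129725336, - strand: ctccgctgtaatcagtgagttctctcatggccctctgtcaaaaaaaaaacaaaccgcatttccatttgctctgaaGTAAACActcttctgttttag

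The Areg stretch is the 250 bases before the annotated start of the gene, and its match begins at position -61 from that start, outside any annotated exon of Areg. The Egf match lies in intron 5 of a GENCODE transcript of Egf with 24 exons and begins at position -175 from a second annotated start within the gene, and no match lay in the promoter of the first start. Both letter strings were searched on both strands in windows of 250 bases before to 50 after each start. Of 32851 such promoters in the RefSeq table, 1.79% held TGACGTCA and 3.65% held TGTTTAC. The table matched 6 of the 10 members with 7 promoters (Areg, Btc, Tgfa, Egf, Egfr and Erbb2), and Btc, Tgfa, Egfr and Erbb2 held neither string. A match describes the letters only. Ereg, Hbegf, Nrg1 and Erbb3 were not matched.

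**Figure D1:**
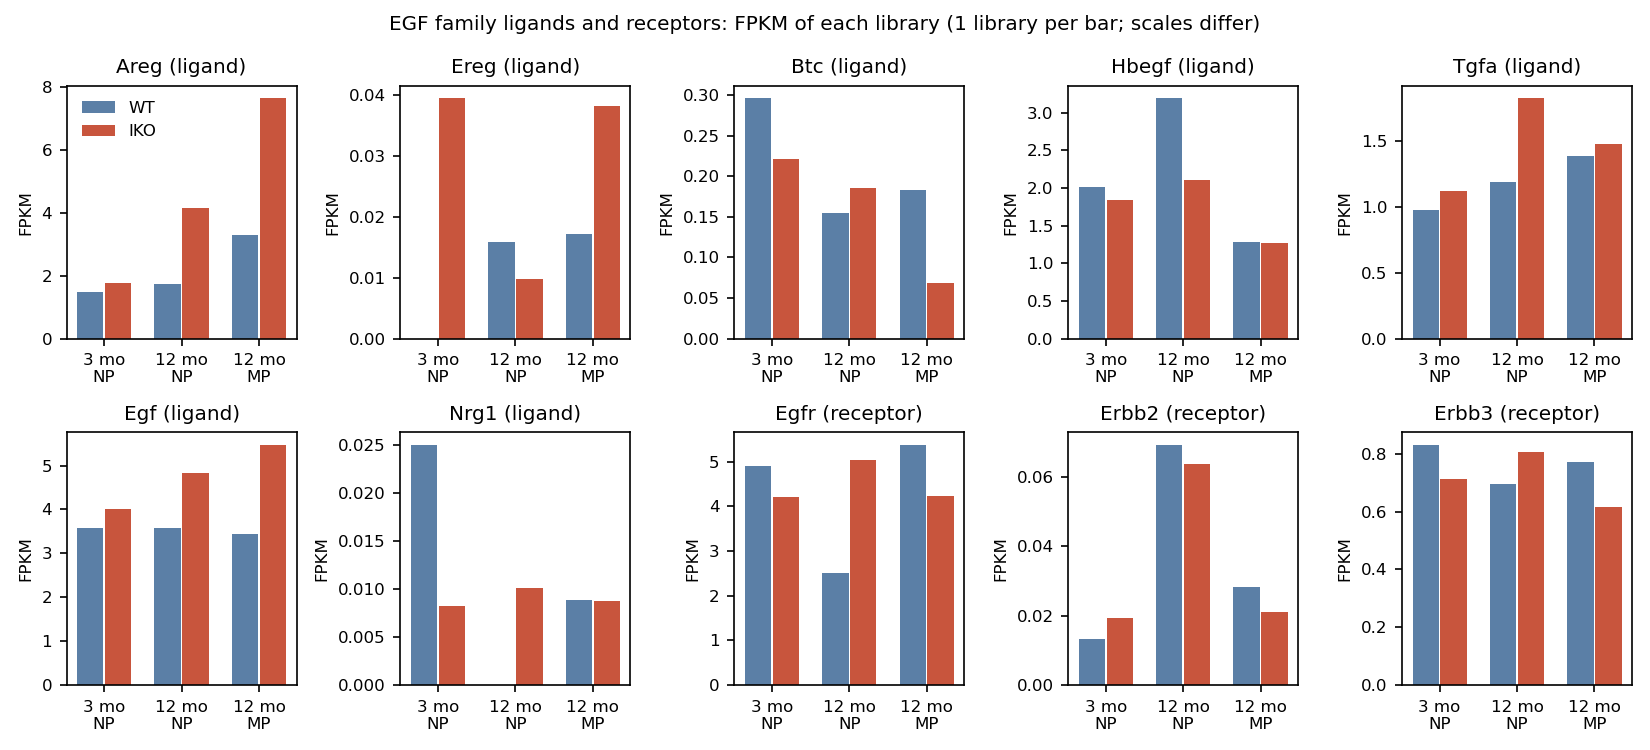
FPKM (y axis, from 0, with a scale of its own in each panel) of the 10 members in the 6 libraries, by stage (x axis; NP nulliparous, MP multiparous, mo months) and genotype (blue WT, red IKO), with 1 library per bar and no error. Areg runs from 1.48 to 7.64 FPKM, Egf is higher in every IKO bar than in every WT bar, and Ereg, Nrg1 and Erbb2 stay under 0.07.

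Areg was the ligand with the widest range, and its highest value was in the multiparous IKO library. In WT it was at 1.48 FPKM at 3 months, 1.72 at 12 months nulliparous and 3.31 after pregnancies. In IKO it was at 1.76, 4.15 and 7.64 FPKM at the same stages. The level was thus higher at each later stage in both genotypes and higher in IKO at each stage, with IKO and WT values overlapping. Ordered from the lowest, WT at 3 months, WT at 12 months nulliparous and IKO at 3 months lay within 0.13 and 0.02 of their neighbours on the log2(FPKM + 1) scale. The multiparous WT library came 0.64 higher, the 12-month nulliparous IKO library 0.26 above it and the multiparous IKO library 0.75 above that. No group has a replicate and the 2 multiparous libraries chose the gene, so there is no spread to set these steps against and they are a description.

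In the multiparous pair, which chose Areg, the IKO level was 2.31 times the WT level, a log2 ratio of FPKM + 1 of 1.01 (1.19 with 0.1 added in place of 1). Areg ranked 11th from the highest of 11113 genes there. Pairs that the choice did not use were those at 3 months, with 1.19 times the WT level (log2 ratio 0.16), and at 12 months nulliparous, with 2.41 times (0.92). The second of these contains the WT library that stood apart, where the central 95% of all genes reached 0.77, and Areg ranked 111th from the highest of 11111 genes. A limma fit to the 4 nulliparous libraries, with genotype and age as terms and 1 residual degree of freedom, gave Areg a log2 difference of 0.54 (SE 0.21, higher in IKO in 2 of 2 pairs, unadjusted p = 0.0246, adjusted p = 0.999). That fit called 0 of the 5 tested members and 0.018% of all genes, and 2.23% of all genes had an unadjusted p under 0.05. Without the filter on low values the unadjusted p of Areg was 0.150. The difference outside the multiparous pair therefore did not pass the test across genes.

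Age and parity were fitted in limma with all 6 libraries and additive terms for genotype and stage, which leaves 2 residual degrees of freedom and counts any unequal genotype effect as error. Areg had a log2 difference of 0.52 between 12 and 3 months nulliparous (SE 0.24, adjusted p = 0.740). That difference did not pass, and its error also draws on the multiparous libraries. Between multiparous and nulliparous libraries at 12 months the Areg difference was 0.70, which is a description with no test, since it uses the multiparous libraries that chose Areg, and it was 0.47 without the multiparous IKO library. Both contrasts use the 12-month nulliparous libraries. Each called 0 of the 5 members tested, beside 0.027% of all genes. At an unadjusted p under 0.05 there were 0 members for age (4.33% of all genes) and 2 for parity (7.4%), Hbegf and Areg, the second holding the values that chose it. With the 12-month nulliparous IKO library left out, parity rests on the WT library that stood apart, limma then called 6319 genes, and the Areg difference was 0.87. With that WT library left out it was 0.53. Over single pairs, Areg was 2.35 times as high at 12 as at 3 months in IKO (27th from the highest of 11109 genes) and 1.16 times in WT. Multiparous libraries had 1.84 times the nulliparous level in IKO and 1.92 times in WT. Areg was the 1 tested member to be higher at both steps from 3 months to 12 months to multiparous in both genotypes, beside 2.38% of all genes. Its last step ends in the libraries that chose Areg, so nothing is read from that share.

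**Figure D2:**
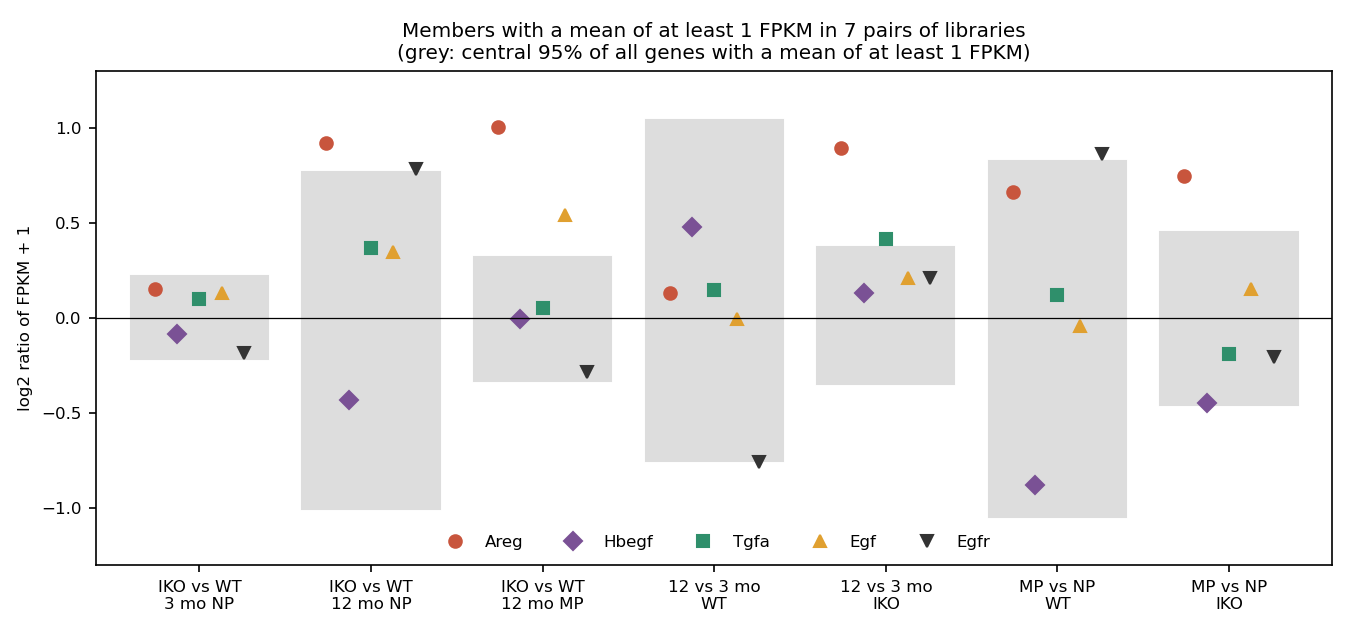
Log2 ratio of FPKM + 1 (y axis) of the 5 members with a mean of at least 1 FPKM in 7 pairs of libraries (x axis), 1 point per gene and pair, with grey boxes for the central 95% of all genes. Areg lies above the box in 4 pairs (0.92, 1.01, 0.90 and 0.75). The value 1.01 is from the pair that chose Areg, and 0.75 uses a library of that pair. Egf lies above the box in the multiparous genotype pair (0.54) and Tgfa in the IKO age pair (0.41). The boxes of the 3 pairs that hold the 12-month nulliparous WT library are the tallest, and Egfr lies just outside each of them (0.79, -0.76 and 0.87).

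Areg lies on chromosome 5 (91139615 to 91148432, mm10, as the deposited table gives it) among other ligand genes of the family, with Epgn and Ereg before it and Btc beyond it. Epgn, encoding epigen, was listed at 0 in 4 of 6 libraries and reached 0.0136 FPKM. Ereg, whose start lies at -65.0 kb from that of Areg, was listed at 0 in the 3-month WT library and was at 0.0395 FPKM in IKO at 3 months, 0.0158 in WT and 0.00971 in IKO at 12 months nulliparous, and 0.0171 in WT and 0.0382 in IKO after pregnancies. Its highest values were in 2 IKO libraries, but all 6 are so low that no ratio is read from them. Btc, 218 kb beyond Areg, encodes betacellulin, first isolated from a mouse beta cell tumour line. WT libraries held 0.297 FPKM at 3 months, 0.154 at 12 months nulliparous and 0.183 after pregnancies. IKO libraries held 0.221, 0.186 and 0.0687 FPKM. Its lowest value was thus in the multiparous IKO library, where Areg was highest. Of the 8 gene rows between Cxcl2 and Parm1 in this stretch, only Areg had a mean above 1 FPKM, and Mthfd2l, a mitochondrial folate enzyme gene, came next at 0.932.

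**Figure D3:**
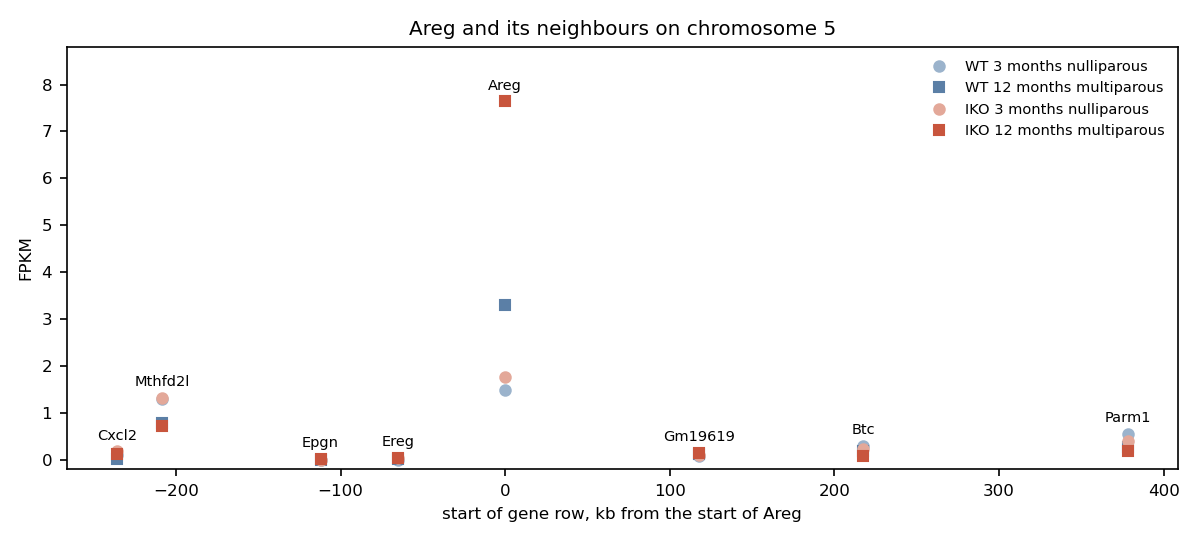
FPKM (y axis) of the 8 gene rows around Areg on chromosome 5 against the distance of each row's start from that of Areg in kb (x axis), in 4 libraries (blue WT, red IKO, circles 3 months nulliparous, squares 12 months multiparous). Areg separates by library, from 1.48 to 7.64 FPKM, and the other ligand genes Epgn, Ereg and Btc stay below 0.3 FPKM.

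Egf was the ligand that separated the genotypes in every library. Its WT values were 3.58, 3.57 and 3.45 FPKM at 3 months, 12 months nulliparous and 12 months multiparous. Its IKO values were 4.02, 4.82 and 5.48 FPKM. The WT values lay close together, and all 3 IKO values lay above all 3 WT values, which held for 3.28% of all genes. The ratio of IKO to WT was 1.12, 1.35 and 1.59, and in the multiparous pair Egf ranked 70th from the highest of 11113 genes. limma gave a log2 difference of 0.34 (SE 0.11, higher in 3 of 3 stages), with an unadjusted p of 0.0317 and an adjusted p of 0.923. An exact permutation test of 3 libraries against 3 cannot go below 0.1 in its 2-sided form. Across the 3 stages limma called 0 of 5 members and 0% of all genes for genotype. At an unadjusted p under 0.05 there were 2 members, Areg and Egf, beside 1.62% of all genes, and for Areg this holds the contrast that chose it.

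Hbegf, whose product is a heparin-binding ligand, was lower after pregnancies in both genotypes. WT had 2.01 FPKM at 3 months, 3.20 at 12 months nulliparous and 1.28 after pregnancies, and IKO had 1.83, 2.11 and 1.28. IKO was below WT at each stage, as it was for 9.8% of all genes, but by very little after pregnancies. Both multiparous libraries lay below all 4 nulliparous ones, as they did for 9.22% of all genes. The log2 difference for parity was -0.66 (SE 0.15, lower in 2 of 2 genotypes, limma adjusted p = 0.484). Without the 12-month nulliparous WT library it was -0.47. Without its IKO partner it was -0.86, but the nulliparous side at 12 months then rests on the WT library that stood apart. In the IKO pair, which has neither multiparous WT nor the library that stood apart, the nulliparous level was 1.65 times the multiparous one.

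Tgfa, a ligand first known from transformed cells, had 0.977 FPKM in WT at 3 months, 1.19 at 12 months nulliparous and 1.39 after pregnancies. IKO had 1.12, 1.83 and 1.48 FPKM. Both 12-month nulliparous values lay above both 3-month values, as for Hbegf and for 19.8% of all genes. It was higher in IKO at each stage, as were Areg and Egf, an order that 13.4% of all genes followed and that for Areg includes the pair that chose it, and the values of the genotypes overlapped. limma gave a log2 difference of 0.28 between 12 and 3 months nulliparous (SE 0.13, adjusted p = 0.740). Nrg1, a neuregulin, was at 0.0251 FPKM in the 3-month WT library, listed at 0 in the 12-month nulliparous WT library, and at 0.00820 to 0.0101 in the other 4. Divided by what 1 fragment is worth in each library, the 3-month WT value was 3.00 times the 3-month IKO value and those of the other 3 were 0.999, 0.999 and 1.0 times it, so these values have the spacing of single fragments and no ratio is read from them.

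Among the receptors, Egfr, which binds Areg, Egf and Tgfa, had the highest level. WT had 4.91 FPKM at 3 months, 2.50 at 12 months nulliparous and 5.38 after pregnancies. IKO had 4.21, 5.04 and 4.24 FPKM. In 5 libraries it thus lay between 4.21 and 5.38, and the low value was that of the WT library that stood apart. IKO was lower than WT at 3 months (log2 ratio -0.18) and after pregnancies (-0.28) and higher at 12 months nulliparous (0.79). The limma difference for genotype was 0.11 (SE 0.24, adjusted p = 0.934), and it turned to -0.23 (adjusted p = 0.362) without that WT library. For parity it was 0.33 (SE 0.29, adjusted p = 0.669) and turned to -0.18 (adjusted p = 0.272).

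Erbb3, a receptor with little kinase activity of its own, had 0.832 FPKM in WT at 3 months, 0.695 at 12 months nulliparous and 0.773 after pregnancies. In IKO it had 0.713, 0.805 and 0.617 FPKM, and all 6 values lay under the 1 FPKM needed for testing. Erbb2 had 0.0132, 0.0693 and 0.0281 FPKM at these stages in WT and 0.0195, 0.0637 and 0.0209 in IKO. Both 12-month nulliparous libraries were the highest, at values where single fragments count. Of the family outside the 10 members, Erbb4 was listed at 0 in all 6 libraries, and Nrg2 (0.0256 to 0.118 FPKM) and Nrg4 (0.0355 to 0.0813) had the highest means. In all, 5 of the 10 members had a mean of at least 1 FPKM and were tested. Areg, Hbegf, Egf and Egfr were above 1 FPKM in all 6 libraries, and Tgfa in 5 of 6. Just inside that limit was Tgfa with a mean of 1.33 FPKM and just outside it Erbb3 with 0.739.

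By pairs, members were counted where the log2 ratio of FPKM + 1 reached 1.5-fold in size with 1 of the libraries at 1 FPKM or more, and 5 could be compared each time. IKO against WT gave 0 members at 3 months (0.367% of all genes), Areg alone in the multiparous pair (1.09%), and Areg and Egfr, both higher, at 12 months nulliparous (16%). For age there was Egfr, lower, in WT (15.7%) and Areg, higher, in IKO (1.7%). For parity Areg and Egfr were higher and Hbegf lower in WT (18.3%), and Areg was higher in IKO (2.77%), both pairs ending in a library that chose Areg. The 3 pairs that hold the 12-month nulliparous WT library had the highest backgrounds of the 7, and those 3 were the pairs in which Egfr passed. By the stricter rule of 2-fold with 1 library at 5 FPKM, Areg passed in the multiparous pair that chose it, beside 0.221% of all genes.

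The rest of the pathway was read from lists of genes for shedding, feedback inhibition, the RAS, ERK and PI3 kinase cascade, early response genes of ERK, cAMP response and YAP targets. limma called 0 genes in any of these lists for genotype, age or parity. In the multiparous pair, 0 genes of these lists reached 1.5-fold, out of 7, 13, 21, 12, 7 and 2 that could be compared, beside 1.09% of all genes, so the counts of 0 are near the background. Errfi1, which encodes an inhibitor that binds EGFR and is induced by it, had 19.4 FPKM in the WT and 16.9 in the IKO library. Dusp4, a phosphatase of ERK, was at 15.6 and 11.3 FPKM. The medians of the log2 ratio were -0.04 for feedback inhibitors, -0.01 for the cascade, 0.10 for early response genes and 0.02 for cAMP response genes, against -0.02 for all genes.

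At 12 months nulliparous, 5 of 13 feedback inhibitors were at least 1.5-fold higher in IKO (Errfi1, Cbl, Spry4, Spred2 and Dusp4) and 0 lower, beside 7.15% of all genes higher. Their median log2 ratio was 0.37, against 0.07 for all genes. Errfi1 was at 11.2 FPKM in that WT library, at 11.8 and 12.1 at 3 months, and at 16.9 to 19.4 in the other 3. In that pair Cbl, a ubiquitin ligase that acts on EGFR, had 1.59 FPKM in the WT and 3.40 in the IKO library. In the other 4 libraries Cbl was at 2.84 to 3.19 FPKM, so its low value, like that of Egfr, was in the WT library that stood apart. Spry4 (1.06 FPKM, against 1.56 to 2.15 in the other 5), Spred2 (2.27, against 4.22 to 5.01) and Dusp4 (9.63, against 11.3 to 16.7) were also lowest in that WT library. Between 12 and 3 months in IKO, which leaves that library out, 1 inhibitor was higher (Errfi1, 19.0 against 12.1 FPKM) and 0 lower of 13, beside 1.02% of all genes higher and 0.677% lower. Of 7 cAMP response genes, Nr4a2, a nuclear receptor gene, and Irs2, which encodes an insulin receptor substrate, were higher in IKO in the 12-month nulliparous pair. Irs2 was lowest in the WT library of that pair (4.29 FPKM, against 5.96 to 9.18 in the other 5). Nr4a2 was at 3.15 FPKM in that WT library, 7.06 in its IKO partner and 3.10 to 5.62 in the other 4. In IKO alone Nr4a2 was higher at 12 than at 3 months and lower after pregnancies. Crem, itself a cAMP-induced regulator, was at 22.1 FPKM in the 12-month nulliparous WT library and at 25.8 to 29.1 in the other 5.

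Of the lists, Ier3, an early response gene, was the 1 gene that passed 1.5-fold upward in both parity pairs. Of all genes, 8.21% passed upward in the WT pair and 1.34% in the IKO pair. Ier3 was at 9.78 FPKM nulliparous and 23.9 multiparous in WT, and at 16.6 and 28.5 in IKO at 12 months. Its lowest value, 9.78 FPKM, was in the WT library that stood apart. The 3-month values were 16.4 (WT) and 14.0 FPKM (IKO). Adam17, the main protease that releases Areg, named here after its values were seen, had 6.09, 5.99 and 7.71 FPKM over the WT stages, and 5.93, 6.84 and 7.19 over those of IKO. Fos, an ERK-responsive transcription factor gene, was at 74.9 to 102 FPKM, and Araf and Shc1, the highest of the cascade, were at 79.6 to 100.3 and at 77.7 to 86.8.

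**Figure D4:**
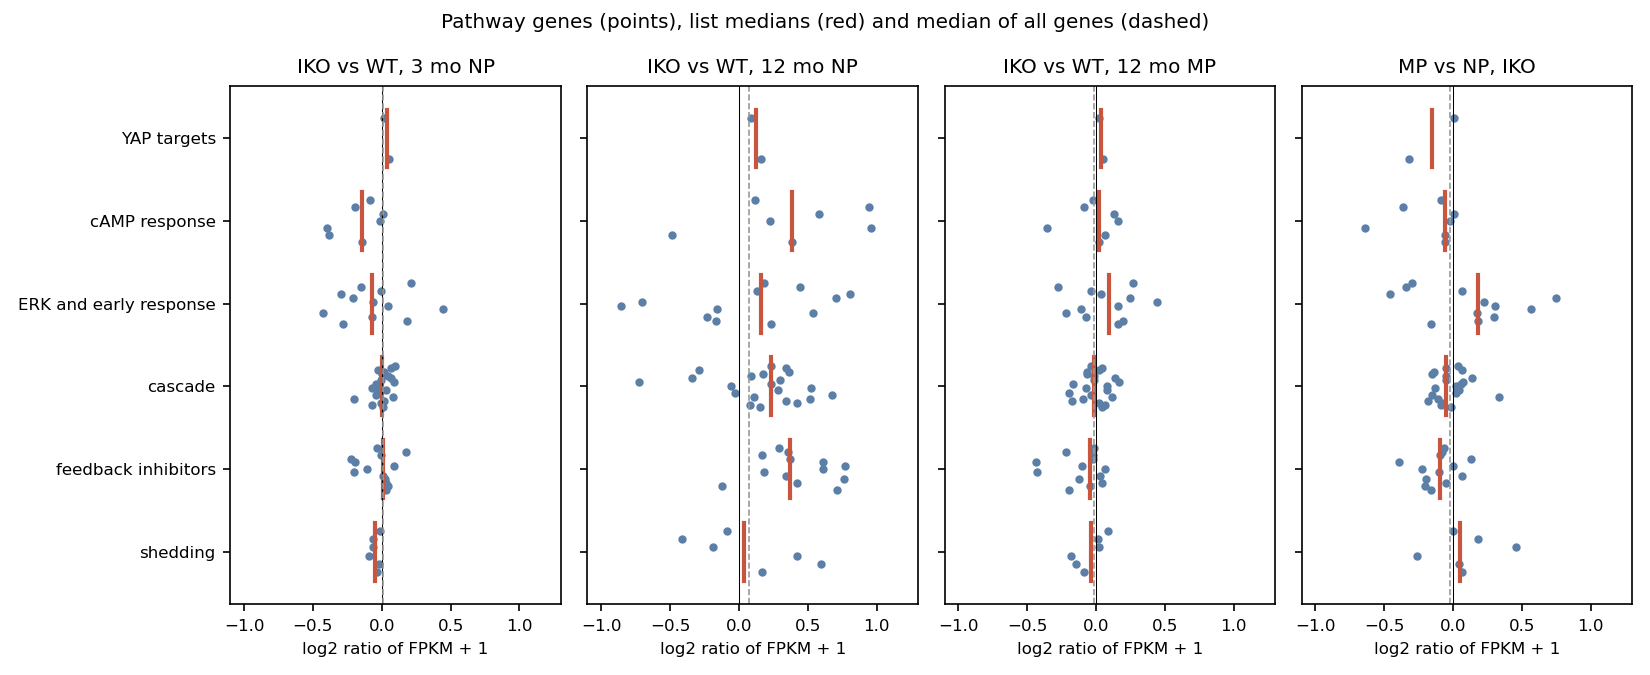
Log2 ratio of FPKM + 1 (x axis) of pathway genes whose mean reached 1 FPKM, by list (y axis), in 4 pairs of libraries, with 1 point per gene, red bars for list medians and a dashed line for the median of all genes. The points spread most at 12 months nulliparous, where the feedback inhibitors have a median of 0.37, and least at 3 months.

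The genes with the pattern most like that of Areg were ranked by Pearson's r of log2(FPKM + 1) over the 6 libraries among 4166 genes that varied by at least 0.5 on that scale. The first was Galr1, a receptor for the neuropeptide galanin (r = 0.982), followed by Csf3, the cytokine G-CSF (0.963), Serpina3n, a protease inhibitor (0.958), Lcn2, the siderophore-binding lipocalin 2 (0.954), and Il4i1, an amino acid oxidase (0.945). Over the stages Galr1 had 6.32, 7.04 and 8.16 FPKM for WT, and 7.16, 8.42 and 10.1 for IKO. Lcn2 had 27.5, 23.6 and 41.4 FPKM over the WT stages, and 23.5, 38.7 and 57.9 over those of IKO. All 5 were highest in the multiparous IKO library, as Areg was. Each r is over 6 libraries and was picked as one of the highest of 4166, so it describes the likeness and is not tested. The member other than Areg with the widest range was Hbegf, and Eid1 (r = 0.998), Zfp771 (0.991) and Prps1 (0.988) were the most like it, each highest in the 12-month nulliparous WT library.

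**Figure D5:**
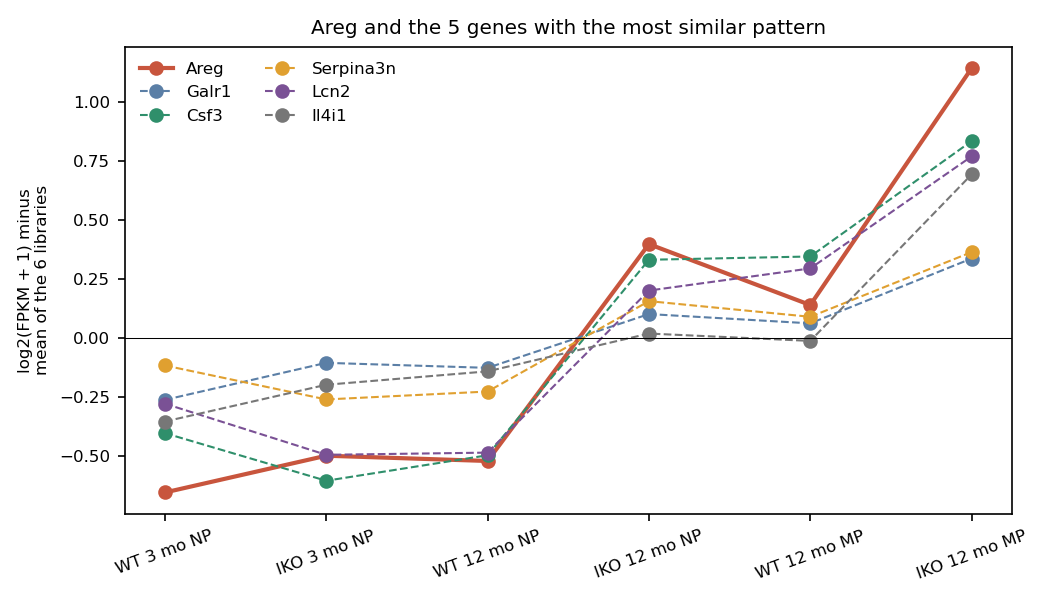
Log2(FPKM + 1) minus the mean of the 6 libraries (y axis) in each library (x axis), with 1 point per gene and library, for Areg and the 5 genes ranked most like it. Areg spans 1.80 on this scale, more than each of the others, and all 6 genes are highest in the multiparous IKO library.

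Other cells of the pancreas also make EGF family ligands, and fewer cells of a type cannot be told apart from less RNA per cell in such libraries. Between the multiparous WT and IKO libraries, the summed FPKM of 9 macrophage markers (2 with a mean of at least 1 FPKM) was 17.8 and 14.7. That of 10 lymphocyte and mast cell markers (0 with such a mean) was 1.35 and 0.966, and that of 8 fibroblast and stellate cell markers (0) was 1.21 and 0.318. Over all libraries the ranges of these sums were 14.7 to 20.9, 0.664 to 1.91 and 0.318 to 2.34. Of the macrophage list, C1qa was at 6.83 to 15.4 FPKM and Cd68 at 1.16 to 7.81, while Csf1r was at 0.0227 to 0.119 and Emr1 at 0.0156 or less, and Cpa3, a mast cell protease gene, was listed at 0 in all 6. The duct list of 10 markers (8) summed to 767 and 838 FPKM, with 677 to 838 over all libraries. Most of that sum came from Krt7, Spp1, Krt18 and Epcam, and the duct factor Sox9 was at 0.0242 FPKM or less in every library. The endothelial sum of 8 markers (1) was 4.34 and 4.47. The alpha cell sum was 742 in the multiparous WT and 279 in the multiparous IKO library, with the glucagon gene Gcg at 655 and 175 FPKM, the delta cell sum was 183 and 106, and the PP cell marker was at 303 and 361. The part of these cells in the Areg values was not tested. The 12-month nulliparous WT library, where Egfr was lowest and Hbegf highest, also had the highest acinar sum of the 6 (83.0, against 4.4 to 29.6 in the others). The same was true of the sums of alpha cell markers (1069, against 279 to 742), delta cell markers (565, against 106 to 204) and the PP cell marker (990, against 219 to 361). The endothelial (9.27, against 4.06 to 4.47), fibroblast and stellate (2.34, against 0.318 to 1.29) and lymphocyte and mast cell sums (1.91, against 0.664 to 1.37) were also highest in the 12-month nulliparous WT library. Its macrophage (17.6) and duct sums (793) were not the highest. Its beta cell sum was the lowest of the 6 (1203, against 1297 to 1592), though the beta cell markers Mafa, Nkx6-1 and Slc30a8 were highest in it. The part of all these cells in the values of Egfr and Hbegf was not tested.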

How the data were processed

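Messenger RNA of sorted beta cells was sequenced as strand-specific paired reads of 100 bases, per the labels' protocols. The authors deposited FPKM values, 1 column per library, and the submitters' processing notes name TopHat, Cufflinks, Cuffdiff and the build mm10. Absolute depth is unknown. The value of 1 fragment gave relative depth only, and no interval for counting error was computed. Rows of the 260 symbols at more than 1 locus were left out.

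Levels were analysed as log2(FPKM + 1), which understates the change of low genes. limma 3.58.1 in R 4.3.3 fitted genotype and stage to the 11131 genes whose mean FPKM reached 1, with a trended variance and Benjamini-Hochberg adjustment at 0.05. The code was tested on simulated data with the same spread for every gene and no library that stood apart. That run gives no measure of the error for these members. Pairs of libraries were compared by log2 ratio, and comparisons that share a library are not independent. The members, gene lists and tests were chosen with earlier results of these data known. Named from each list were genes 1.5-fold different the same way in both parity pairs and those with the highest means, and genes behind counts of 5 or fewer were named after their values were seen. Alternatives were another pseudocount, 2 rescalings, other filters, no variance trend and each library left out.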

Additional observations from a re-analysis of the deposited data

Results flagged for a closer look

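Egfr differed in opposite directions between groups in 4 comparisons on the log2(FPKM + 1) scale. After pregnancies it was 0.87 higher in WT and had a difference of -0.21 in IKO. From 3 to 12 months nulliparous the difference was -0.76 in WT and 0.21 in IKO. Between IKO and WT it was -0.18 at 3 months against 0.79 at 12 months nulliparous, and 0.79 there against -0.28 after pregnancies. With 1 library a group, none of these differences was tested. All 4 use the 12-month nulliparous WT library, which holds the lowest Egfr value, 2.50 FPKM.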

How the results depend on the processing

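No paired analysis was possible because the labels carry no replicate numbers to pair by. Stage is a term of the fits, so genotypes are compared within stages. With 0.1 added in place of 1, the Areg log2 ratio in the multiparous pair was 1.19 in place of 1.01. Members past 1.5-fold then numbered 2 in place of 1 in the multiparous genotype pair, in both age pairs and in the IKO parity pair. Areg is among them in the multiparous genotype pair, which chose it, in the IKO parity pair and in the IKO age pair. The share of all genes past that rule with 0.1 added was not computed, so nothing is read from these counts. With 0.1 added, limma called 1 gene for genotype in place of 0. For age, 3 genes were called, and 0 with genes listed at 0 left out. For parity, 3 genes were called, 1 after rescaling without the 20 highest genes, and 0 with no filter, with a mean FPKM of at least 5, or with genes listed at 0 left out. Over the nulliparous libraries 2 genes were called for genotype, 39 after rescaling without the 20 highest genes, and 0 with no filter or a mean FPKM of at least 5. Leaving a library out there leaves no residual degree of freedom and was not run. No member has a mean of 5 FPKM, so that filter gave no value for members.

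Leaving out each library in turn, limma called 2 to 9 genes for genotype, 17 to 6039 for age and 20 to 6319 for parity. Members called were 0 for genotype, 0 to 2 for age and 0 to 3 for parity. The highest counts, of all genes as of members, came without the 12-month nulliparous IKO library, so nothing is read from them about the members. The differences for parity were then -0.86 for Hbegf, 0.84 for Egfr and 0.87 for Areg, which holds the values that chose it. For age they were 0.50 for Hbegf and -0.78 for Egfr. The nulliparous side at 12 months then rests on the WT library that stands apart. Egfr for genotype was -0.23 to 0.30 over these, at -0.23 without either 12-month nulliparous library, with adjusted p = 0.362 without WT and 0.365 without IKO, and turned to -0.18 for parity without that of WT.

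Areg over the nulliparous libraries was 0.51 to 0.73 in 6 alternatives (limma adjusted p = 0.936 to 1.0). Areg for age was 0.11 to 0.92 (adjusted p = 0.270 to 1.0) in 12, and Areg for parity, as a description, 0.47 to 0.94. Egf for genotype was 0.24 to 0.45 (0.394 to 1.0), Hbegf for parity -0.97 to -0.47 (0.00227 to 1.0) and Tgfa for age 0.14 to 0.46 (0.159 to 1.0), all in 12. The rescaling without the 20 highest genes moved the median of all genes to 0.11 in the nulliparous fit, from 0.04.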
